A study of Mus musculus with 11 samples.

Results

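The 6 genes described here encode the early growth response (EGR) transcription factors Egr1, Egr2, Egr3 and Egr4 and the EGR-binding corepressors Nab1 and Nab2. They were taken by name from the 48440 genes of the RNA-seq count table and the 32285 genes of both scRNA-seq matrices, and all 6 were present in each. They were proposed with the difference between WT and cKO cultures already known, so their culture values are given as a description, with no test. The scRNA-seq values were not used to choose them.

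EGR factors are zinc finger proteins that bind GC-rich sites in promoters. Their genes are immediate early genes: growth factors, neuronal activity and stress switch them on within minutes through the ERK kinases, which act on serum response factor (SRF) and its ternary complex cofactors, and the transcripts are short-lived. NAB1 and NAB2 bind the inhibitory domain of EGR1, EGR2 and EGR3 and repress their targets, and Nab2 is itself a known EGR target, so that the corepressor closes a feedback loop. In the nervous system Egr1 is best known as an activity-induced gene, Egr2 (Krox20) for hindbrain segments and Schwann cells, and Egr3 for muscle spindles. In the immune system Egr2 and Egr3 are expressed in lymphocytes and macrophages.

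The study removed Syncrip, an RNA-binding protein of the hnRNP family, with floxed alleles and Emx1-Cre, which is active in the dorsal telencephalon. Neural progenitor cells (NPCs) isolated at E14.5 from the walls of the lateral ventricles and grown with EGF and bFGF gave 3 WT and 3 cKO cultures for RNA-seq, and the dorsal telencephalon of 1 WT and 1 cKO embryo of the same litter, also at E14.5, gave 1 scRNA-seq library each. The methods describe crosses with Nestin-Cre as well as Emx1-Cre, and the labels of the cultures do not name the driver. All animals were on a C57BL/6 background, no treatment other than the culture medium is described, and the LACE-seq libraries were not analysed here.

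Totals ran from 16962903 to 22708400 counts per culture. The scRNA-seq matrices kept 8214 WT and 9560 cKO cells with 100012918 and 111133493 unique molecular identifiers (UMIs), medians of 11705 and 11012.5 per cell, and 22 shared barcodes. Counts over the whole Syncrip gene were not lower in cKO. Scaled to the library total (CPM), the WT cultures had 77.9, 79.8 and 79.9 and the cKO cultures 90.3, 88.7 and 81.5, all above WT, with a log2 fold change of 0.13 ± 0.075 (SE) with an adjusted p of 0.18 by edgeR's quasi-likelihood test. Reads outside the floxed exons count toward the Syncrip counts, so they do not check the deletion, and WT and cKO therefore stand for the labels throughout. The paper itself reports that the floxed exons were missing from RNA-seq tracks of cKO neurospheres. It also shows a blot and staining for the protein in control and cKO neocortex. Nothing in the labels says that the cultures came from separate animals, so the spread between them may be technical in part; by Y-linked counts, WT cultures 1 and 2 and cKO culture 1 were male and the other 3 were not, and the WT embryo was male and the cKO embryo female. The NPC markers Nes (means of 61.2 CPM in WT and 116 in cKO) and Pax6 (76.6 and 61.0) were present in the cultures.

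Promoter sequences of RefSeq on build GRCm38.p6 were at hand for 4 of the 6 members, Egr2 with 5 start sites and Egr4, Nab1 and Nab2 with 1 each. The 250 bases before each start were searched on both strands for the CArG box, the core of the serum response element, for the EGR site GCGNGGGCG, for the cyclic AMP response element TGACGTCA and for its shorter part TGACG, which every full element also holds. The short stretches that hold matches are shown because they are the letters through which SRF, CREB or EGR factors are known to read genes of this kind. For Egr2, on the plus strand of chromosome 10, the CArG boxes are in capitals; the first lies at chr10:67537484-67537513 and the second, shared by the windows of 3 start sites, at chr10:67537787-67537816.
Egr2 upstream CArG box: cggatcttctCCTTTTTTGGaaagtctcgg
Egr2 downstream CArG box: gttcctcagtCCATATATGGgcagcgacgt
The second Egr2 box begins 72 bases before the start site at position 67537869, and the first lies as far before the start site at position 67537566. In all, 4 of the 5 Egr2 windows held a CArG box, against 1.47% of 32851 windows over 27025 genes, and 3 held the element part TGACG.

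The Egr4 window held no CArG box. It held the element part TGACG at 2 places, both on the strand opposite to Egr4, so that they appear as CGTCA, in capitals, in the stretch below. This stretch, at chr6:85513684-85513776, is written 5′ to 3′ along the minus strand that Egr4 is read from.
Egr4 upstream stretch: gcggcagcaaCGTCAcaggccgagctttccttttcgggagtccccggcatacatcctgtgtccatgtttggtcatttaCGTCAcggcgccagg
Windows with TGACG made up 17.8% of all windows, and those with the full element 1.55%, which no member window held. Nab1, on the minus strand of chromosome 1, had 3 EGR sites in its window, at chr1:52500571-52500599, chr1:52500539-52500567 and chr1:52500468-52500496, each in capitals.
Nab1 first EGR site: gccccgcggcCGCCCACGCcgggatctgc
Nab1 second EGR site: actcggccgcGCGTGGGCGggagccggag
Nab1 last EGR site: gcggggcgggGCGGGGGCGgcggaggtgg
The first of these is read on the opposite strand. An EGR site stood in 4.70% of all windows, and the Nab2, Egr2 and Egr4 windows held none. A match is a run of letters and does not show that a factor binds there.

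In culture, the transcripts of all 4 EGR genes were far more abundant in cKO than in WT, while those of both corepressors were at similar levels. Across all 14432 genes tested, 39.5% were called at an adjusted p below 0.05, 19.7% higher and 19.8% lower in cKO, and in 25.7% all cKO cultures lay above all WT cultures. All 6 members passed the filter on low counts, and since the contrast chose them nothing is read from the count of those that moved. Egr3, Egr2, Egr4 and Egr1 had the ranks 1, 2, 3 and 7 of all tested genes by log2 fold change. These ranks restate the contrast that chose the members and are not support for it. Egr3 and Egr4, with very low WT counts, passed the filter through the cKO cultures, and the rank of Egr3 depends on the prior count of the fit.

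Egr1 (chr18:34859823-34864984, plus strand, mm10) was the most abundant member. It had 57.2, 56.5 and 60.0 CPM in WT cultures 1 to 3, against 1000, 1088 and 1064 CPM in cKO cultures 1 to 3. The groups lay far apart, the cultures within a group differed by little, and the ratio of the means was 18.2, a log2 fold change of 4.18 ± 0.089 (SE, n = 3 and 3).

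Egr2 (chr10:67535475-67542188, plus strand) was close to the lower limit of detection in WT cultures and plainly expressed in cKO cultures. Its counts were 17, 10 and 27 in WT against 745, 595 and 772 in cKO, or 0.766, 0.557 and 1.21 CPM against 36.5, 34.7 and 37.2 CPM. Every cKO culture was above every WT culture, with a ratio of means of 42.9 and a log2 fold change of 5.38 ± 0.18 (SE).

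Egr3 (chr14:70077445-70080157 in the deposited table, plus strand) had 2, 1 and 0 counts in the WT cultures and 239, 221 and 224 in the cKO cultures. With 3 WT counts in all, the ratio of the pooled counts was 246 with a counting interval of 83.9 to 1197, and the fitted log2 fold change of 7.77 ± 0.36 (SE) depends on the prior count of the fit. The 95% interval from this SE, 7.06 to 8.47, is narrower than the counting interval on the log2 scale, 6.39 to 10.2, so the SE understates the uncertainty. The deposited span covers 38.7% of the exon bases that GENCODE release M21 gives for Egr3, so part of its transcript may not have been counted. In CPM the cKO cultures stood at 11.7, 12.9 and 10.8.

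Egr4 (chr6:85511121-85513589, minus strand) was the least even of the EGR genes among WT cultures. WT culture 1 had 14 counts and WT cultures 2 and 3 had 3 and 1, whereas the cKO cultures had 168, 191 and 204. In CPM these were 0.630, 0.167 and 0.0446 against 8.24, 11.1 and 9.84, so the groups did not overlap. The log2 fold change was 5.05 ± 0.40 (SE), and 6.52 without WT culture 1.

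The corepressors behaved differently from the factors they bind. Nab1 (chr1:52457294-52500679, minus strand) stood at 35.9, 30.5 and 27.5 CPM in WT against 39.0, 29.2 and 35.8 CPM in cKO cultures. The groups overlapped, with a log2 fold change of 0.15 ± 0.12 (SE). Nab2 (chr10:127660918-127668568, minus strand) stood at 5.40, 8.80 and 7.85 CPM in WT against 7.11, 9.90 and 8.20 CPM in cKO, also with overlap and with a log2 fold change of 0.19 ± 0.19 (SE). Of the deposited Nab2 span, 43.8% overlaps Stat6, Gm16229 and Tmem194, and whether the counting used strand is not given in the sources used here, so reads of these genes may be among its counts.

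**Figure D1:**
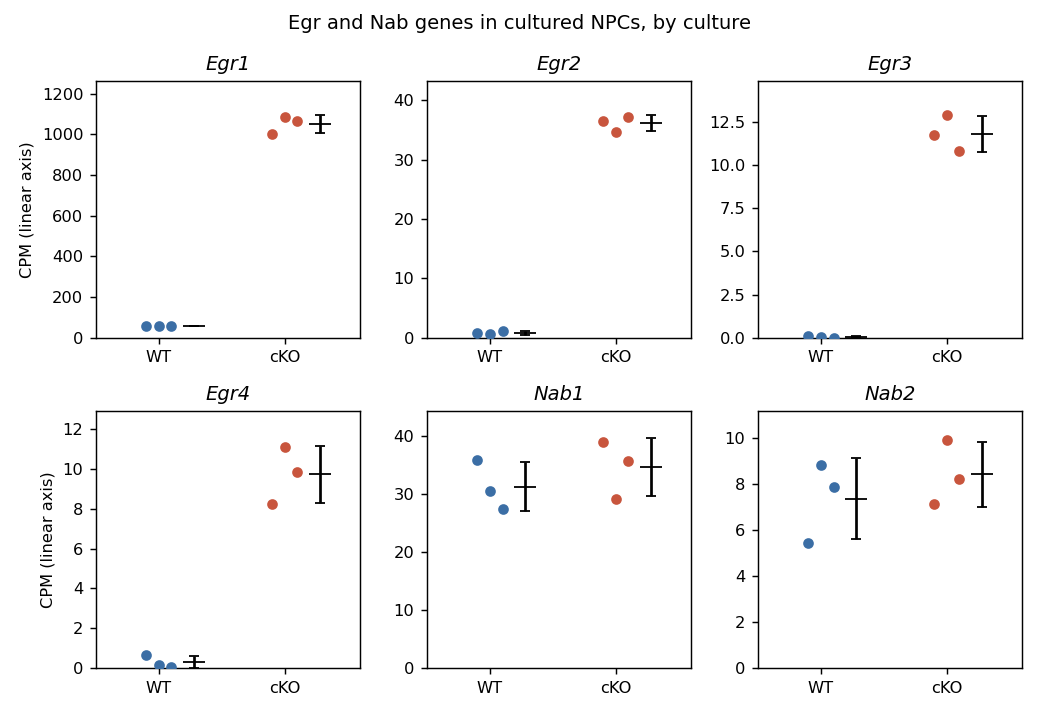
CPM (linear axis from 0) of each member in each of the 3 WT (blue) and 3 cKO (red) cultures, with the mean and SD in black. Egr1, Egr2, Egr3 and Egr4 have no overlap between genotypes, with Egr1 at 56.5 to 60.0 CPM in WT and 1000 to 1088 CPM in cKO, while the Nab1 and Nab2 points of both genotypes overlap.

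Divided by exon length, which allows levels of different genes to be compared, the order of the members differed between the genotypes. For Egr3 the length was the 1707 exon bases inside the deposited span, against 4406 in GENCODE M21. Its place in the order depends on this choice, and the Nab2 counts may hold reads of overlapping genes. In WT cultures Egr1 led with a median of 12.8 CPM per kb, above Nab1 at 7.44 and Nab2 at 2.67, and the other EGR genes were far below, Egr2 at 0.225, Egr4 at 0.0778 and Egr3 at 0.0326. The cultures of neighbours Egr2 and Egr4, and of Egr4 and Egr3, overlapped in this order. In cKO cultures Egr1 stood at 237 CPM per kb, Egr2 at 10.8, Nab1 at 8.72, Egr3 at 6.87, Egr4 at 4.58 and Nab2 at 2.79. There the lowest Egr2 culture (10.2) was above the highest Nab1 culture (9.52). With the lengths used, the Nab1 and Egr3 cultures overlapped (7.12 to 9.52 and 6.33 to 7.54), and Nab2 was the lowest of the 6 members.

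Other genes of the same pathway also differed between the cultures. These and the later gene lists came from textbook knowledge, but were chosen with earlier results of these data known. Their counts and p-values are therefore a description and not independent support for the EGR result. Of 28 other immediate early genes, 27 passed the filter; 21 were higher and 2 were lower in cKO, and 4 were not called, with a median log2 fold change of 2.18 against 0.002 over all genes. The 6 with the largest differences were Klf2 and Klf4, zinc finger factors of the Krüppel-like family, at 4.64 ± 0.25 and 3.89 ± 0.24; the AP-1 subunits Fosb and Junb at 4.50 ± 0.14 and 4.05 ± 0.20; Zfp36, which promotes decay of AU-rich mRNAs, at 3.84 ± 0.17; and Arc, a synaptic immediate early gene, at 3.70 ± 0.22 (log2 fold change ± SE, edgeR adjusted p from 6.55e-11 to 6.09e-08). The 2 that were lower were Ier5 (-1.55 ± 0.16, adjusted p of 7.27e-06) and Myc (-0.50 ± 0.10, adjusted p of 0.00177), named here after their values were seen.

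Genes that ERK signaling induces and that dampen or carry it were mostly higher in cKO as well. Of 13 ERK feedback genes, 11 were higher in cKO and none lower, with a median log2 fold change of 0.88, and Dusp4 and Spred1 were not called (adjusted p of 0.0805 and 0.355). Dusp6, a phosphatase that inactivates ERK, had 16.7, 14.2 and 11.8 CPM in WT against 91.0, 84.8 and 93.8 CPM in cKO, a log2 fold change of 2.66 ± 0.12 (edgeR adjusted p of 3.11e-09). The receptor pathway inhibitor Spry4 differed by 1.63 ± 0.099 and the ETS factor Etv4 by 1.74 ± 0.098 (edgeR adjusted p of 5.6e-08 and 3.07e-08).

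Of 5 tested SRF cofactor genes, Elk4 (0.45 ± 0.14, adjusted p of 0.0167) and Mkl2 (0.69 ± 0.22, adjusted p of 0.0258) were higher in cKO, Elk1, Elk3 and Mkl1 were not called, and Srf was listed at 0 in every culture. Among 15 EGF and FGF ligands and receptors, 12 passed the filter, 6 of them higher and 1 lower in cKO, with a median log2 fold change of 0.29. The receptor gene Erbb4 had the largest difference, 1.07 ± 0.093 (edgeR adjusted p of 1.35e-06), and Egfr, the receptor for the EGF in the medium, was not called at 0.13 ± 0.087.

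Known targets of EGR factors were lower in cKO more often than higher. Of 15 such genes 13 passed the filter, with 1 higher, 7 lower and 5 not called, and a median log2 fold change of -0.27 against 0.002 over all genes. Arc, which is also among the immediate early genes, was the one that was higher. Cdk5r1, the activator of the neuronal kinase CDK5, had 130, 129 and 163 CPM in WT against 62.4, 54.5 and 58.1 CPM in cKO, a log2 fold change of -1.27 ± 0.097 (edgeR adjusted p of 3.86e-07). The growth factor gene Pdgfa (-0.79 ± 0.087), the inhibitor of bHLH factors Id2 (-0.91 ± 0.089), the neurotrophin receptor gene Ngfr (-1.22 ± 0.32), Tgfb1 (-0.98 ± 0.34), the synapsin gene Syn1 (-0.27 ± 0.092) and the coagulation factor receptor gene F3 (-0.26 ± 0.078) were the other 6 that were lower.

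Markers of other cells also differed between the cultures, some lower and some higher in cKO, and their part in these results was not tested. Over all tested genes, 19.7% were called higher and 19.8% lower. In bulk samples fewer cells of a type and less RNA per cell cannot be told apart. Of 8 neuronal markers tested, 6 were lower in cKO, with sums of 1148 to 1264 CPM for WT and 692.8 to 726.8 CPM for cKO cultures. Of 5 astrocyte markers, 4 were lower (sums of 4007 to 4430 and 2439 to 2751 CPM), and 2 of 4 tested endothelial and mural markers were lower (43.3 to 51.3 and 24.1 to 34.7 CPM). Of 5 oligodendrocyte lineage markers 2 were higher (1902 to 2209 and 2275 to 2634 CPM). Of 8 heat shock genes, which are not markers of a cell type, 3 were higher, but their sums overlapped (2025 to 2421 and 2264 to 2422 CPM). For microglia, which express Egr2 and Egr3 in the tissue, 1 of 8 markers passed the filter and was higher (Cx3cr1, 0.279 to 0.892 and 1.13 to 2.21 CPM), while the defining markers C1qa, C1qb, C1qc, P2ry12 and Tyrobp were listed at 0 in all 6 cultures. Srf and the neuronal gene Tubb3, which cells of these kinds use, were also listed at 0, so a 0 in this table need not mean absence.

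The genes whose profile over the 6 cultures was most like the mean standardized profile of Egr1 to Egr4 were Fosb, Bhlhe40, Hspa14, Ccdc59 and Grm5, with Pearson correlations of 0.9985 to 0.9993. These values describe a profile that mostly separates the genotypes, and 141 of 14428 genes reached 0.99.

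In the tissue, the difference by genotype was of the opposite sign for Egr1 and was much smaller. Cells were grouped into classes by marker genes, and each name below stands for cells like that type; the marker check was met by 10 classes, 4 clusters stayed unnamed, and pericytes were not separated. Values are UMIs of a gene summed over the cells of a class and scaled to CPM by the UMI total of that class. Exact 95% intervals in parentheses cover counting error only. With 1 embryo per genotype there is no replicate check and no test was made.

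Egr1 was detected in every class. In apical progenitors (APs), the dividing cells that line the ventricle, 1187 UMIs in 1003 WT cells and 1228 UMIs in 1363 cKO cells gave levels of 84.4 CPM (79.6 to 89.3) and 60.5 CPM (57.1 to 63.9). The log2 ratio of cKO over WT was -0.48 (-0.60 to -0.36), that is, lower in cKO. Over the 10583 genes with at least 200 UMIs in APs, the median log2 ratio was -0.01, the 10th percentile -0.20 and the 90th percentile 0.22, so the Egr1 ratio lay below the 10th percentile of all genes between these embryos. The sign was opposite to that in the cultures, where Egr1 was higher in cKO by 4.18 on the same scale.

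Each of the 3 AP clusters had an Egr1 ratio below 0. It was -0.62 (-0.76 to -0.48) in the cluster led by Tnc, Hes5 and Aldoc, -0.22 (-0.43 to 0.0023) in the cluster led by the mitotic genes Aurkb and Plk1 and -0.58 (-2.06 to 0.87) in the cluster with the lowest UMI counts, which held 10 WT and 9 cKO Egr1 UMIs. The interval left out 0 in the first of these. Without the cluster of low UMI counts the ratio over APs was -0.48 (-0.60 to -0.37).

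Egr1 was present in a minority of APs, and the share depended on depth. At least 1 Egr1 UMI was found in 224 of 1003 WT APs (22.3%) and 302 of 1363 cKO APs (22.2%), at medians of 12765 and 12921 UMIs per cell. When cells with at least 5000 UMIs were thinned to 5000 each, leaving out 182 WT and 176 cKO cells, the shares were 18.0% (15.5 to 20.8) and 14.4% (12.5 to 16.5). In red blood cells, which should lack the transcript, 1 of 55 WT and 1 of 57 cKO cells held an Egr1 UMI, at medians of 3537 and 2838 UMIs. Cells with 3 or more Egr1 UMIs made up 13.3% of WT and 11.2% of cKO APs, and the 10 cells with most held 202 of 1187 and 185 of 1228 UMIs.

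APs with an Egr1 UMI more often held a UMI of Fos, the AP-1 gene induced by the same signals, which was picked here after its values were seen. Fos was found in 59.8% of 224 Egr1-positive WT APs and in 17.1% of the 779 others, and in cKO in 50.3% of 302 and 15.3% of 1061. Egr1-positive APs were also deeper, with medians of 15288.5 against 11624 UMIs in WT and 15516.5 against 12250 in cKO, and the part of depth in these shares was not tested.

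Among the other cells of the excitatory lineage, Egr1 levels summed over each class were lower in neurons than in progenitors in both embryos, while single clusters overlapped. Intermediate progenitors (IPs), the Eomes-expressing cells that APs give rise to, had the highest level of this lineage, 119 CPM against 95.2 CPM in cKO, a log2 ratio of -0.32 (-0.46 to -0.19). The ratio was -0.19 (-0.33 to -0.04) in the largest IP cluster. It was -0.94 (-1.53 to -0.36) in the IP cluster led by histone genes and -1.14 (-1.80 to -0.51) in that led by mitotic genes. Migrating neurons had 57.4 and 47.3 CPM, a ratio of -0.28 (-0.41 to -0.15). Their clusters had ratios of -0.78 (-1.09 to -0.49) and -0.20 (-0.34 to -0.06), so both class ratios pool unlike clusters. The second of these clusters, at 90.8 and 79.1 CPM, was above the AP sums and above the IP clusters led by histone genes (43.1 and 22.5 CPM) and by mitotic genes (53.1 and 24.1 CPM). Immature neurons stood at 8.67 and 8.07 CPM with a ratio of -0.10 (-0.35 to 0.15), whose interval includes 0.

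In cells of the ganglionic eminence, a ventral region outside the Emx1 domain, Egr1 stood at 19.3 CPM against 19.8 CPM in cKO, a log2 ratio of 0.03 (-0.23 to 0.30). Classes that do not arise from dorsal progenitors but lie in the same dissected tissue had some of the highest levels. Microglia had 892 CPM in 31 WT cells and 643 CPM in 49 cKO cells, a ratio of -0.47 (-0.72 to -0.23). In the 17 WT and 16 cKO microglia of the deeper of 2 microglial clusters it was -0.29 (-0.53 to -0.04).

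Endothelial cells had 164 CPM in 24 WT cells and 67.1 CPM in 33 cKO cells, a log2 ratio of -1.29 (-1.69 to -0.89), with 46 of the 199 WT UMIs in 1 cell. Meningeal fibroblasts had 242 and 160 CPM, a ratio of -0.60 (-0.93 to -0.27), which was -0.02 when the CPM of single cells were averaged instead. Of 8 classes with at least 20 Egr1 UMIs, 6 had a ratio below 0 beyond the counting interval, none above it, and 2 an interval that includes 0. Across 22 single clusters with as many UMIs, 11 were below 0 beyond the interval and 1 was above it, a ganglionic eminence cluster with 33 WT and 57 cKO UMIs. The share of all genes beyond the interval was not computed, so these counts have no background. All classes and clusters come from the same WT and cKO libraries, so they do not replicate each other.

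**Figure D2:**
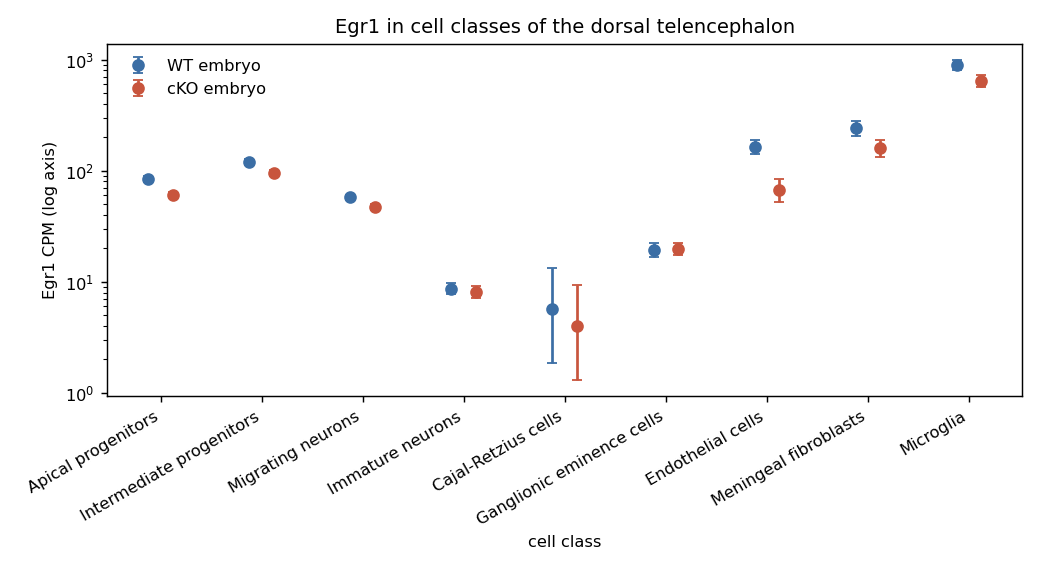
Egr1 CPM (log axis) in 9 cell classes of the WT (blue) and cKO (red) embryo, with exact Poisson 95% intervals. The highest levels are in microglia (892 and 643 CPM) and the lowest in Cajal-Retzius cells (5.70 and 3.99 CPM), and the WT value is above the cKO value in all classes shown except ganglionic eminence cells.

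Egr2 was rare in both embryos. It had 39 UMIs in all WT cells and 31 in all cKO cells, and microglia, which held 0.361% of all UMIs, held 37 of these 70 (52.9%). In that class its level was 55.0 CPM against 42.0 CPM in cKO, with 21 and 16 UMIs and a log2 ratio of -0.39 (-1.42 to 0.62). APs had 2 UMIs in each embryo, and ganglionic eminence cells had 0 of either genotype.

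Egr3 had 102 UMIs in all WT and 99 in all cKO cells, 58 of them (28.9%) in microglia at 81.1 and 70.9 CPM. The remainder was spread thinly, with 24 WT and 29 cKO UMIs in ganglionic eminence cells (2.23 and 2.04 CPM) and 15 and 17 in immature neurons (0.459 and 0.536 CPM). In APs there were 10 UMIs in WT and 2 in cKO, a log2 ratio of -2.85 (-6.08 to -0.62). Egr4 was the rarest member, with 1 UMI in all WT cells and 2 in all cKO cells and 0 in APs of both embryos, where a count of 0 allows up to 0.213 CPM in WT and 0.148 CPM in cKO.

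In APs, Egr2, Egr3 and Egr4 were at 0 to 10 UMIs in each embryo. Egr4 had no UMIs there and so no ratio. The Egr2 interval, from -4.32 to 3.26, leaves its direction undecided, and only Egr3 had an interval below 0. Levels in cultures count reads along the transcript and those in tissue count 3′ ends, so only differences within each experiment are set side by side.

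Nab1 differed little between the embryos. Over all cells it had 39.7 CPM against 40.1 CPM in cKO, a log2 ratio of 0.02 (-0.05 to 0.08). Its level was higher in immature neurons, at 57.3 and 65.7 CPM with a ratio of 0.20 (0.11 to 0.29), than in APs, at 19.6 and 22.2 CPM with a ratio of 0.18 (-0.04 to 0.40). Of 8 classes with at least 20 UMIs, only immature neurons had an interval that left out 0. Among 23 single clusters with as many UMIs, 3 were above 0 beyond the interval and none below, again without a background. They were the AP cluster led by Tnc, Hes5 and Aldoc at 0.33 (0.04 to 0.625), an unnamed cluster at 0.43 (0.09 to 0.76) and a cluster of immature neurons. The 3 clusters of immature neurons differed in level and in their share of cells. The cluster with the lowest Nab1 level (29.4 and 29.9 CPM, a ratio of 0.02) held 1130 WT and 946 cKO cells, and the cluster with the highest (91.8 and 107 CPM, a ratio of 0.22, 0.03 to 0.41) held 320 and 461. The remaining cluster, with 694 and 759 cells, had a ratio of 0.01 (-0.11 to 0.14). The class ratio therefore includes a different mix of clusters in the embryos and is not a measure of change within its cells.

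Nab2 was low, with 201 UMIs in all WT cells and 339 in all cKO cells, and was the only member whose interval over all cells lay above 0, with a log2 ratio of 0.60 (0.35 to 0.86). This ratio includes a different mix of cells in the embryos. An unnamed cluster with 191 WT and 603 cKO cells held 6 and 38 of the Nab2 UMIs. The 2 named classes with an interval above 0 were neurons: migrating neurons had 17 and 40 UMIs, a ratio of 1.42 (0.57 to 2.33), and immature neurons 70 and 120, a ratio of 0.82 (0.38 to 1.27). APs had 26 and 47 UMIs at 1.85 and 2.31 CPM, with a ratio of 0.32 (-0.40 to 1.07). Most of the difference in migrating neurons came from 1 of their clusters, with 4 WT and 24 cKO UMIs. At least 1 Nab2 UMI was found in 0.970% of WT and 2.25% of cKO migrating neurons, and in 0.591% (0.284 to 1.08) and 0.698% (0.349 to 1.25) after thinning to 5000 UMIs per cell.

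**Figure D3:**
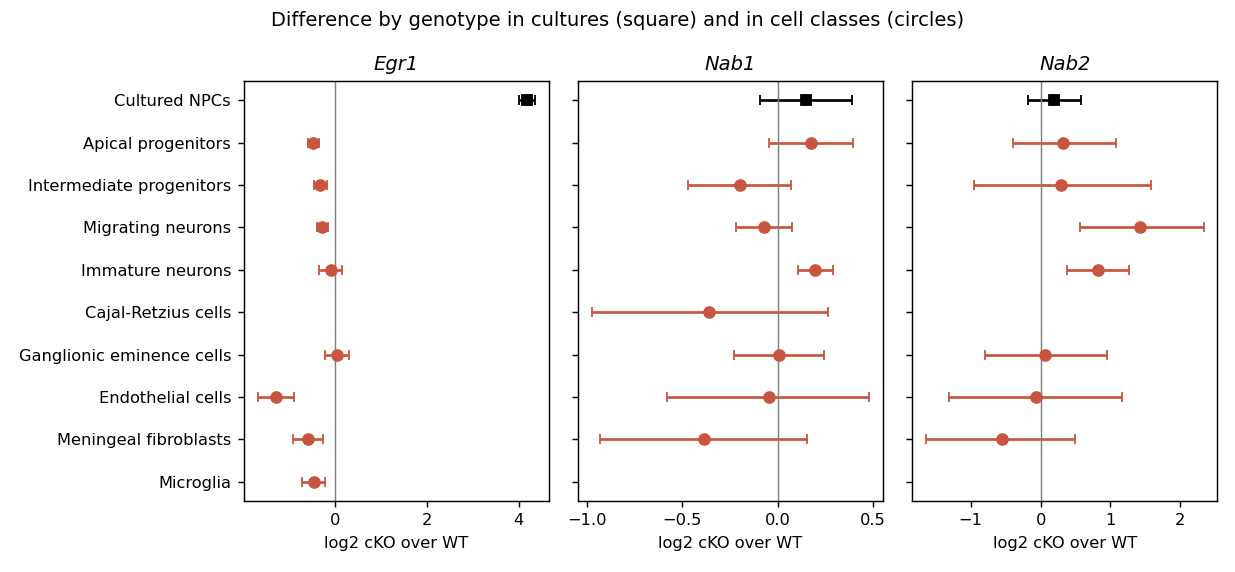
Log2 ratio of cKO over WT for Egr1, Nab1 and Nab2 in the cultured NPCs (black square, edgeR log2 fold change with its 95% interval) and in cell classes with at least 20 UMIs (red circles, exact 95% counting interval); each panel has its own axis. Egr1 is at 4.18 in the cultures and between -1.29 and 0.03 in the classes, while the Nab1 and Nab2 values of the cultures lie near 0.

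The pathway genes that were higher in cKO cultures were also compared with their ratios in APs. Of the 21 immediate early genes called higher in culture, 19 had at least 20 UMIs in APs. Of these, 14 had a ratio below 0, 7 of them beyond the counting interval, and 2 were above 0 beyond it. The share of all AP genes with an interval that leaves out 0 was not computed. These counts therefore have no background and are not read as a result about the pathway. Fosb, at 15.4 CPM in WT and 7.83 in cKO APs, had a log2 ratio of -0.98 (-1.28 to -0.68), and Klf2 one of -0.81 (-1.43 to -0.19). Arc went the other way, with 17 and 55 UMIs and a ratio of 1.16 (0.36 to 2.04). Of the 11 ERK feedback genes called higher in culture, all had at least 20 UMIs in APs, and every one had an interval that includes 0, with a median ratio of -0.12.

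**Figure D4:**
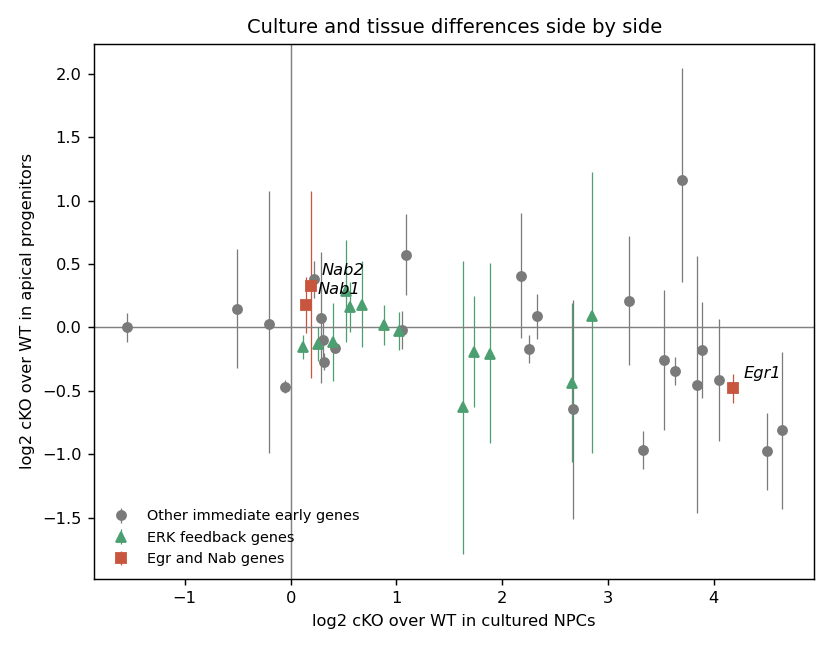
Log2 ratio of cKO over WT in APs (vertical axis, exact 95% counting intervals) against the log2 fold change in cultured NPCs (horizontal axis) for members, other immediate early genes and ERK feedback genes with at least 20 UMIs in APs. Egr1 lies at 4.18 and -0.48, and most immediate early genes to the right of 0 lie below 0 on the vertical axis.

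The other immediate early genes are given for the remaining classes beside the Egr1 ratios, and their part in these was not tested. For these classes too, the share of all genes beyond the interval was not computed, so the counts have no background. In endothelial cells 18 of 23 other immediate early genes with at least 20 UMIs were lower in cKO beyond the interval and none higher, with a median ratio of -1.02. In microglia 10 of 18 were lower and none higher (median -0.46), and in meningeal fibroblasts 10 were lower and 1 higher of 18 (median -0.60). In IPs 7 of 22 were lower and 2 higher (median -0.14), and in migrating neurons 10 of 23 were lower and 3 higher (median -0.15). In immature neurons, where the interval of the Egr1 ratio includes 0, 11 of 24 were lower and 5 higher (median -0.22). In ganglionic eminence cells, where the Egr1 ratio was 0.03, 5 of 23 were higher and 3 lower (median 0.13). Of 6 heat shock genes in APs, 2 were higher and 3 lower beyond the interval, with a median ratio of -0.03.

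Over the sums of 22 clusters in each embryo, 44 points in all, the genes whose level was most like that of Egr1 were Ccdc8, Gramd3, Rdh5, Ttyh2 and Phldb2, with Pearson correlations of 0.837 to 0.861 over 14288 genes compared. The points of an embryo share a library, and the clusters differ in depth. By the same measure Nab2 had a correlation of 0.25 with Egr1, Nab1 0.14 and Egr3 0.13.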

How the data were processed

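For RNA-seq, the authors aligned quality-filtered reads to mm10 with HISAT2 and deposited raw counts per gene; for the counting program, its annotation and the strand setting the sources used here give nothing. For scRNA-seq, the deposited values are raw UMI counts per gene and barcode from Cell Ranger. Counts of the cultures were analysed with edgeR 4.0.16 in R 4.3.3 (filterByExpr, TMM scaling, robust quasi-likelihood test, Benjamini-Hochberg adjustment at 0.05 over 14432 genes). Barcodes under 200 genes or over 10% mitochondrial UMIs were left out, and the other cells were clustered with Seurat 5.3.0 at resolution 0.8, with the members and other immediate early genes left out of the variable genes; Scrublet (scanpy 1.11.5) marked doublets, which were removed only as an alternative. To be named, a cluster needed 3 or more markers raised 1.5-fold, a mean of 0.5 or more over its standardized markers and no more markers of another class than of its own among the 10 leading genes; these limits came from an earlier description of the data. Ratios have exact conditional intervals, thinned shares exact binomial intervals, and the limit set for a count of 0 was 3 counts. In a simulation at the real means 200 of the tested genes were given changes, and the edgeR fit was checked on it.

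The 6 members and the gene lists were chosen with earlier results of these data known. Named were the members, Syncrip, genes of lists of up to 15 genes, the 6 largest called differences of the longer list and the 5 most similar genes. Replicate numbers did not pair the cultures (correlations of same-numbered deviations of 0.264, -0.047 and 0.116). Alternatives were RLE and upper quartile scaling, other filters, DESeq2 1.42.0, limma-voom (limma 3.58.1), the replicate block, the sex of the culture, each culture left out, resolutions 0.4 and 1.2, doublet removal, at least 1000 genes per cell, means over cells and removal of the 1% of cells with most UMIs of the gene. Removal of clusters of low UMI counts was chosen after seeing the data.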

Additional observations from a re-analysis of the deposited data

Results flagged for a closer look

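Egr1 was flagged because it was higher in all 3 cKO cultures than in all 3 WT cultures, by 4.18 on the log2 scale, but lower in the cKO embryo beyond the counting interval in APs (-0.48, -0.60 to -0.36) and in IPs (-0.32, -0.46 to -0.19). The IP value pools clusters, at -0.19 (-0.33 to -0.04) in the largest and further below 0 in the others. Egr3 was flagged for the same pattern, 7.77 in cultures and -2.85 (-6.08 to -0.62) in APs, where it rests on 10 WT and 2 cKO UMIs. The difference between culture and tissue was not tested, since the tissue has 1 embryo of each genotype, and the embryos also differed in sex.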

How the results depend on the processing

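None of the alternatives turned the direction of a called difference. In cultures, 137 of 140 alternative values stayed within 1.5 times the main count or within the spread between cultures (1 SD). The exceptions were Egr3 (8.56 without WT culture 1 and 7.18 without WT culture 3, against 7.77) and Egr4 (6.52 without WT culture 1, against 5.05), which have few WT counts. Leaving out each culture gave 2068 to 3070 genes higher and 2040 to 3275 lower in cKO. With the replicate block there were 3189 higher and 3216 lower, against 2843 and 2858, and Egr1 stood at 4.18. In tissue, 202 of 214 values stayed within the counting interval. The Egr1 ratio in APs ran from -0.58 to -0.37. At resolution 0.4 the Egr1 ratio moved to -0.84 in endothelial cells, -0.15 in IPs and -0.75 in migrating neurons, and at 1.2 to -0.18 in IPs, -0.73 in migrating neurons and -1.45 in meningeal fibroblasts (Nab1 there to -0.98), where classes hold other cells. Averaging the CPM of single cells gave Egr1 ratios of -0.02 in meningeal fibroblasts and -0.27 over all cells and a Nab1 ratio of 0.10 over all cells. The cause of these moves was not tested. Leaving out the 1% of cells with most UMIs of the gene gave Nab2 ratios of 2.77 in ganglionic eminence cells and 1.01 over all cells; since 13 of 1190 WT and 26 of 1641 cKO ganglionic eminence cells held a Nab2 UMI, this removed nearly every such WT cell and says nothing about Nab2 there. Depth limits Egr2, Egr3 and Egr4 in tissue, and 1 embryo of each genotype limits every tissue value.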
